A study of Danio rerio with 36 samples.

Results

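Whole zebrafish larvae kept in 222 mM glucose were compared with larvae kept in 130 mM glucose 24 h after amputation of the caudal fin. The comparison is defined by its group labels and rests on 6 of the 36 libraries of the series, 3 for each glucose level. All larvae were wild type. From 6 h after fertilisation they were kept in 222 mM glucose, in 130 mM glucose or in regular medium. The fin was cut after 14 days of this exposure, and the larvae returned to the same medium until total RNA of the whole organism was taken. The 3 media were also sampled uncut and at 3 and 48 h, which gave 12 groups of 3 libraries.

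The series title ties the amputation to inflammation and regeneration under diabetic conditions. The sample labels give the higher dose in mM, while the design text gives it once in nM. No group with another solute at the same osmotic strength was analysed here, so glucose and osmotic load cannot be told apart. Whether the replicates are separate clutches or pools is not stated in the labels, and the p-values cover the spread between libraries alone, which may be technical.

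The cut fin of a zebrafish is closed within hours by a wound epidermis. Neutrophils and then macrophages arrive, and a blastema of dividing cells forms below the epidermis and rebuilds fin rays and skin. Interleukin 11, fibroblast growth factors and matrix-cutting enzymes are among the known signals of this process. RNA of a whole larva is mostly that of muscle, gut, liver, skin, brain and eye, so the fin contributes a small share. In such bulk RNA, fewer cells of a type and less RNA per cell cannot be told apart.

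The 6 libraries held 47904694 to 63442681 counted reads. Marker genes of muscle, liver, gut, pancreas, neurons, skin and phagocytes were present in each, from 3529 to 5854 CPM (counts scaled to library size) of mylpfa in muscle to 10.2 to 37.2 CPM of the macrophage gene mpeg1 (ENSDARG00000055290). The globin gene hbaa1 lay below the expression filter. Replicate 1 of 130 mM stood apart from its group. Its mean correlation with the other two across genes was 0.960, against 0.982 between those. Among the genes called as different, it was the 130 mM library nearest to the 222 mM mean in 54.2%, against 17.8% and 28.0% for replicates 2 and 3. Replicate 1 of 222 mM was also the least like its group. Its mean correlation with the others of that dose was 0.975, against 0.984 between those. Along the first principal component of the 9 libraries at 24 h, which held 48.1% of the variance, the 222 mM libraries lay at 61.1, 55.1 and 65.5. The 130 mM libraries lay at 4.08, -29 and -23.1 and the regular-medium libraries at -45.4, -44.2 and -44.1. Single-library values below are CPM after TMM scaling. A log2 fold change is 222 minus 130 mM and is given with its standard error after ±. A gene was called at an adjusted p under 0.05 in edgeR's quasi-likelihood test over 20120 genes.

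At 24 h the 2 glucose levels differed in 4898 of 20120 genes (24.3%), of which 2188 (10.9%) were higher and 2710 (13.5%) lower in 222 mM larvae. In 4494 of the called genes all 3 libraries of one dose lay above all 3 of the other. Such a separation was found in 7534 (37.4%) of all genes tested. Of the called genes, 308 were at least 2-fold higher and 1153 at least 2-fold lower in 222 mM larvae. Genes of cell division, cartilage and fin matrix, the contractile apparatus, epidermis, antigen presentation and fat burning were among those that fell. Genes that build ribosomes, genes of the circadian clock, stress genes of muscle and genes of gp130 signalling were among those that rose.

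**Figure D1:**
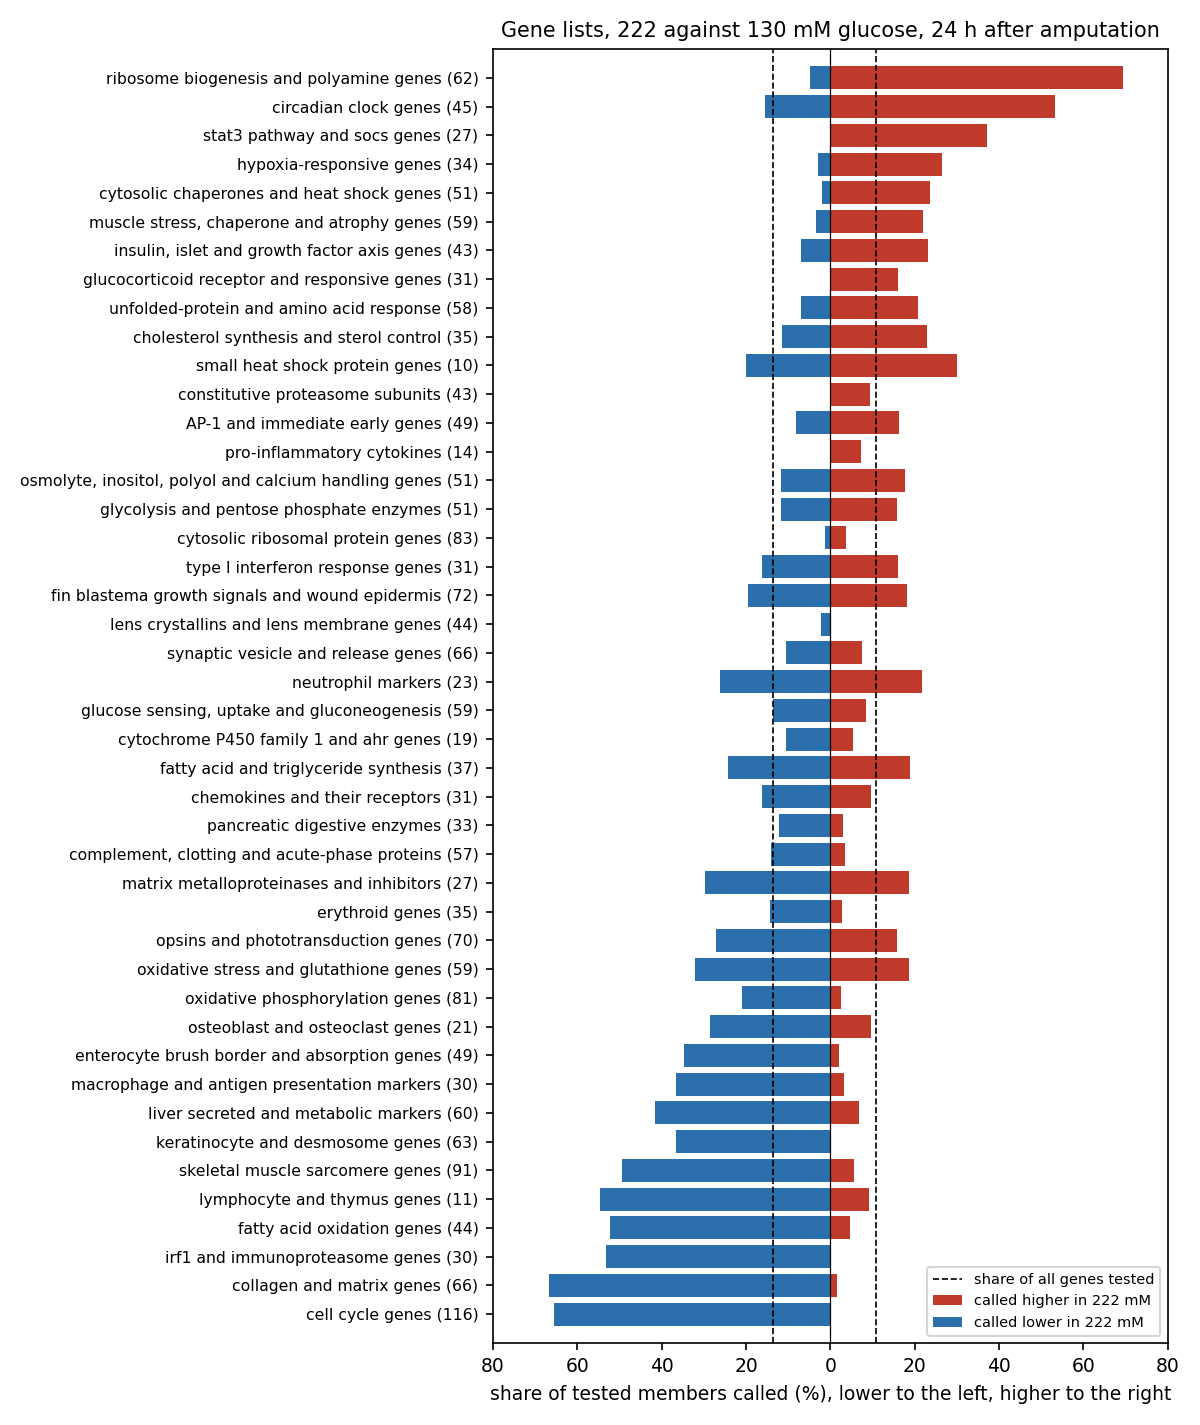
Share of the tested members of 44 gene lists called higher (right, red) or lower (left, blue) in 222 mM than in 130 mM larvae at 24 h, with the number tested in brackets. Dashed lines mark the shares over all genes tested, 10.9% higher and 13.5% lower. Collagen and cell cycle lists reach farthest to the left, ribosome biogenesis and clock lists farthest to the right.

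Genes of dividing cells were lower in 222 mM larvae. Of 116 tested cell cycle genes, 76 fell and 0 rose, and 0 were higher at an unadjusted p under 0.05 in edgeR or called higher by DESeq2. The median log2 fold change of the list was -1.31, against -0.01 over all genes. The summed level was 1007, 1109 and 1039 CPM in 222 mM larvae, against 1790, 2045 and 2081 CPM in 130 mM larvae, so all 222 mM libraries lay below all 130 mM libraries. One member had a log2 fold change above 0.

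The proliferation marker mki67 (ENSDARG00000091150, chromosome 12, 10366617 to 10381282, minus strand, in GRCz11) stood at 18.7, 14.7 and 12.6 CPM in 222 mM larvae, against 28.2, 44.6 and 49.6 CPM in 130 mM larvae. The doses did not overlap, and regular medium gave 33.4, 39.97 and 41.3 CPM, within the range of the 130 mM larvae. The log2 fold change of mki67 was -1.41 ± 0.25 (adjusted p = 0.00014).

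The topoisomerase gene top2a, whose product untangles sister chromatids, had 6.2, 8.85 and 7.86 CPM in 222 mM larvae, against 18.7, 38.1 and 39.2 CPM in 130 mM larvae (log2 fold change -2.07 ± 0.3, adjusted p = 1.8e-05). The gene ncaph, a condensin subunit that compacts chromosomes, had 1.89, 2.45 and 1.8 CPM in 222 mM larvae, against 7.09, 9.2 and 9.61 CPM in 130 mM larvae (log2 fold change -2.07 ± 0.3, adjusted p = 1.1e-05). In both genes replicate 1 was the lowest of the 130 mM libraries and still lay above the highest 222 mM library. The spindle assembly gene tpx2 had a log2 fold change of -1.75 ± 0.26 (adjusted p = 1.3e-05). The separase gene espl1, whose product frees sister chromatids, had one of -1.94 ± 0.28 (adjusted p = 1.1e-05), and the kinetochore gene cenpf one of -2.0 ± 0.29 (adjusted p = 1.3e-05).

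Genes of the matrix of cartilage, bone and fin folds were lower as well. Of 66 tested collagen and matrix genes, 44 fell and 1 rose, with a median of -1.14. The list summed to 3114, 3321 and 3207 CPM in 222 mM larvae, against 6029, 8858 and 8586 CPM in 130 mM larvae, again without overlap.

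Type II collagen is the main fibre of cartilage, and its gene col2a1a (ENSDARG00000069093, chromosome 8, 21195420 to 21219473, plus strand) had 58.1, 77.9 and 88.3 CPM in 222 mM larvae, against 385, 682 and 575 CPM in 130 mM larvae. Regular medium gave 637, 565 and 452 CPM, within the range of the 130 mM larvae and above all 222 mM libraries. The log2 fold change was -2.87 ± 0.41 (adjusted p = 2.0e-05).

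Its partners in cartilage fibrils lay in the same order. The collagen gene col11a2 had 14.4, 14.9 and 13 CPM in 222 mM larvae, against 65.6, 115 and 114 CPM in 130 mM larvae (log2 fold change -2.8 ± 0.44, adjusted p = 5.9e-05). The collagen gene col9a2 had 24.9, 35.5 and 27.4 CPM in 222 mM larvae, against 104, 155 and 144 CPM in 130 mM larvae (log2 fold change -2.2 ± 0.32, adjusted p = 1.7e-05). Matrilin 1, an adaptor protein of cartilage encoded by matn1, was at 6.3, 10.1 and 13.5 CPM in 222 mM larvae, against 65.1, 91.8 and 89.4 CPM in 130 mM larvae (log2 fold change -3.04 ± 0.45, adjusted p = 2.7e-05). No library of one dose lay within the range of the other in these 3 genes.

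Among named, called genes without overlap that reached 5 FPKM in either dose, several of the 12 largest falls were genes of this tissue. Not every gene given below, such as cnmd, is among those 12. The gene col10a1a, a mark of enlarging cartilage cells and early bone in fish, had 4.02, 8.0 and 7.39 CPM in 222 mM larvae, against 38.7, 102 and 71.3 CPM in 130 mM larvae (log2 fold change -3.44 ± 0.62, adjusted p = 0.00024). The secreted cartilage protein gene mia had 1.02, 1.19 and 0.534 CPM in 222 mM larvae, against 7.19, 8.89 and 9.98 CPM in 130 mM larvae (log2 fold change -3.24 ± 0.4, adjusted p = 2.0e-06). Both lay below the 130 mM range in all 222 mM libraries. Lumican (lum) and epiphycan (epyc) are small proteoglycans that order collagen fibres, and their log2 fold changes were -2.4 ± 0.34 (adjusted p = 1.4e-05) and -2.45 ± 0.34 (adjusted p = 1.1e-05). The chondromodulin gene cnmd, an inhibitor of vessel growth in cartilage, had 5.54, 7.53 and 9.35 CPM in 222 mM larvae, against 28, 32.2 and 32.2 CPM in 130 mM larvae (log2 fold change -2.04 ± 0.31, adjusted p = 2.5e-05). The antiangiogenic serpin gene serpinf1 had 3.6, 3.13 and 2.9 CPM in 222 mM larvae, against 18.7, 20.1 and 24.2 CPM in 130 mM larvae (log2 fold change -2.71 ± 0.28, adjusted p = 1.1e-07).

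Fin folds and regrowing fins hold actinotrichia, stiff fibrils made in part of the And1 protein. The gene and1 had 84.6, 66.7 and 48.8 CPM in 222 mM larvae, against 209, 279.8 and 312 CPM in 130 mM larvae (log2 fold change -2.0 ± 0.26, adjusted p = 5.5e-06), and regular medium gave 182, 159 and 177 CPM, between the doses. Tenascin C (tnc), which is laid down in regenerating fins, had 37.8, 41 and 39.1 CPM in 222 mM larvae, against 82.8, 102 and 96.6 CPM in 130 mM larvae (log2 fold change -1.25 ± 0.27, adjusted p = 0.0011). All 222 mM libraries were below the 130 mM range in both genes.

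Of 21 bone genes, 6 fell (28.6%) and 2 rose (9.52%), beside 13.5% and 10.9% over all genes. The gene entpd5a, which zebrafish need to mineralise bone, had 0.25, 0.566 and 0.388 CPM in 222 mM larvae, against 2.67, 2.61 and 2.16 CPM in 130 mM larvae (log2 fold change -2.61 ± 0.45, adjusted p = 0.00010). Osteopontin (spp1), a protein of bone matrix, had 6.51, 7.37 and 4.87 CPM in 222 mM larvae, against 14.8, 20.6 and 19.99 CPM in 130 mM larvae (log2 fold change -1.56 ± 0.42, adjusted p = 0.0071). The member of the matrix list that rose was loxl2a, a collagen crosslinker, with 20.02, 25.2 and 32 CPM in 222 mM larvae, against 12, 9.7 and 11.9 CPM in 130 mM larvae (log2 fold change 1.2 ± 0.23, adjusted p = 0.00030).

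**Figure D2:**
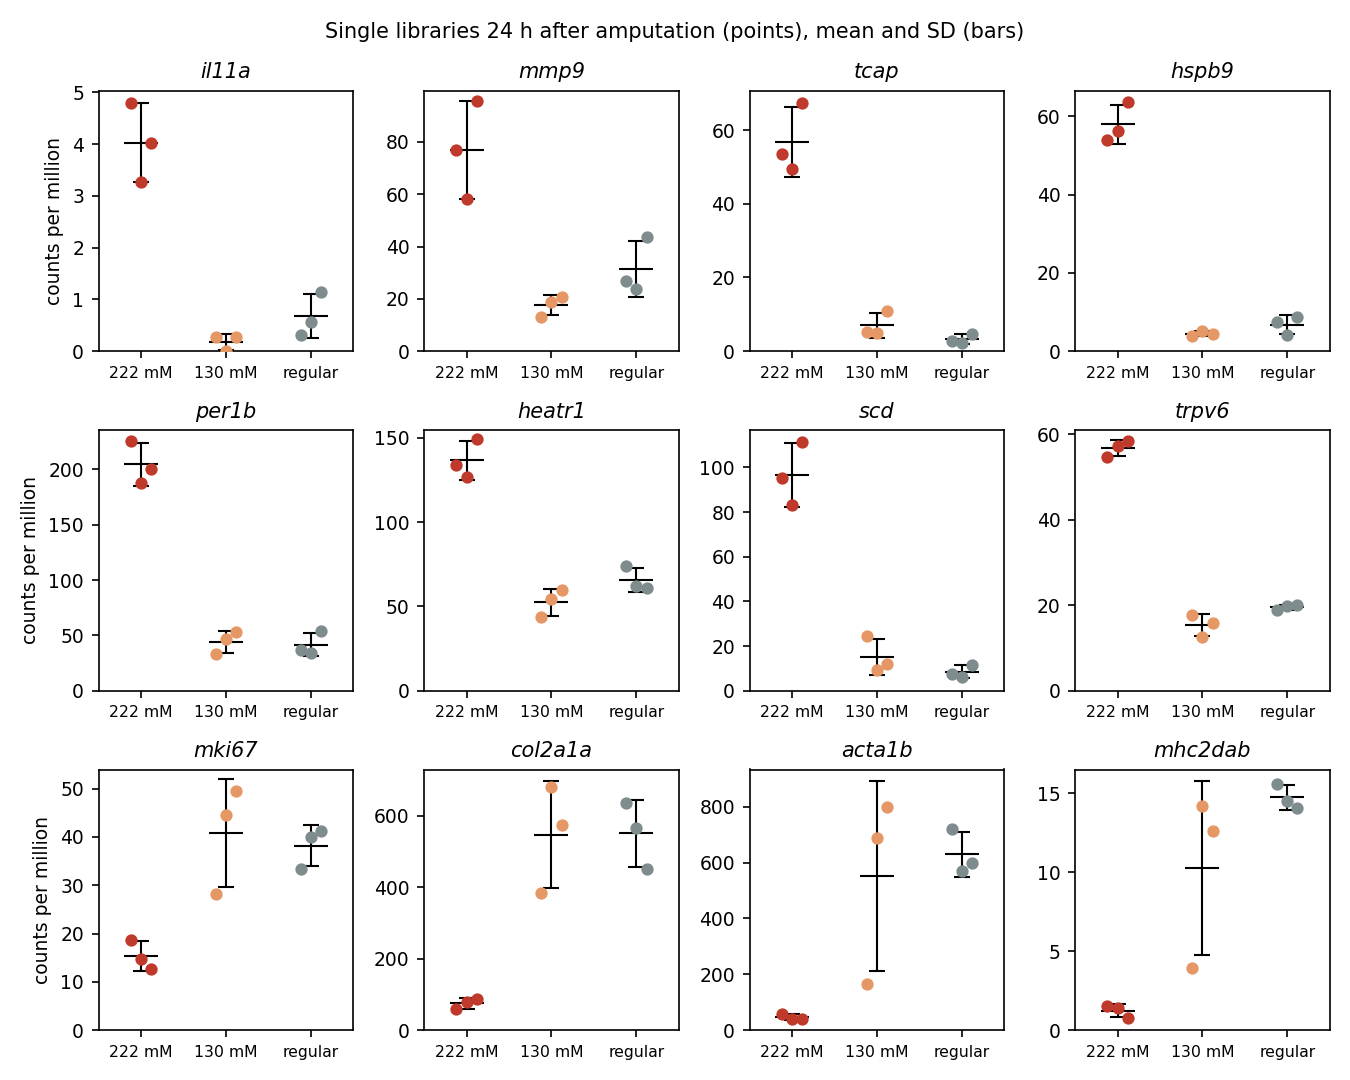
CPM of 12 genes in each library at 24 h (points), with mean and SD (bars), for 222 mM, 130 mM and regular medium, on linear axes that start at 0. The genes from il11a to trpv6 are higher in all 222 mM libraries than in all 130 mM libraries, and mki67, col2a1a, acta1b and mhc2dab are lower. In acta1b and mhc2dab replicate 1 of 130 mM, at 166 and 3.94 CPM, is the 130 mM library nearest to the 222 mM group.

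Muscle genes split by role. Of 91 tested genes of the contractile apparatus, 45 fell and 5 rose (median -0.5). Of 59 tested genes of muscle stress, chaperones and atrophy, 13 rose (22.0%) and 2 fell (3.39%), with a median of 0.23. Over all genes 10.9% rose and 13.5% fell. The contractile list summed to 51373, 59923 and 55719 CPM in 222 mM larvae, against 64152, 79040 and 83292 CPM in 130 mM larvae. The stress list summed to 3015, 2759 and 2930 CPM in 222 mM larvae, against 1895, 2198 and 2363 CPM in 130 mM larvae. Neither sum overlapped between the doses.

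The skeletal actin gene acta1b (ENSDARG00000055618, chromosome 13, 24279021 to 24284442, plus strand) had 57.8, 41.4 and 39.6 CPM in 222 mM larvae, against 166, 689 and 801 CPM in 130 mM larvae, and its log2 fold change was -3.58 ± 0.6 (adjusted p = 0.00013). Replicate 1 of 130 mM was far below the other two and still above all 222 mM libraries. Its paralog acta1a had 35.8, 29.3 and 39.3 CPM in 222 mM larvae, against 85.5, 149 and 149 CPM in 130 mM larvae (log2 fold change -1.88 ± 0.23, adjusted p = 1.7e-06). Actin genes are near-identical copies, so reads may be split between them.

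Other muscle genes also fell. The myosin light chain gene myl1 had 71.5, 101 and 91.9 CPM in 222 mM larvae, against 266, 370.0 and 343 CPM in 130 mM larvae (log2 fold change -1.89 ± 0.25, adjusted p = 5.5e-06). The troponin T gene tnnt3a had 30.8, 28.8 and 25.9 CPM in 222 mM larvae, against 58.5, 96.7 and 127 CPM in 130 mM larvae (log2 fold change -1.72 ± 0.25, adjusted p = 1.7e-05). The calcium buffer gene pvalb1 of fast fibres had 479, 644 and 570.3 CPM in 222 mM larvae, against 1516, 2021 and 1935 CPM in 130 mM larvae (log2 fold change -1.69 ± 0.27, adjusted p = 4.1e-05). For pvalb1 regular medium gave 3076, 2748 and 2618 CPM, above both doses. The calsequestrin gene casq1a, whose product binds stored calcium, had 4.91, 6.69 and 3.45 CPM in 222 mM larvae, against 20.3, 47.8 and 44.7 CPM in 130 mM larvae (log2 fold change -2.9 ± 0.57, adjusted p = 0.00053).

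Several stress genes showed the reverse. Titin-cap, a Z-disc protein whose gene tcap stands in both muscle lists, had 53.6, 49.3 and 67.5 CPM in 222 mM larvae, against 5.3, 4.87 and 11 CPM in 130 mM larvae (log2 fold change 3.02 ± 0.51, adjusted p = 0.00013). Regular medium gave 2.74, 2.2 and 4.76 CPM of tcap, below every 130 mM library. The strain-responsive gene ankrd1a had 29.4, 17.4 and 23.7 CPM in 222 mM larvae, against 3.42, 3.39 and 5.25 CPM in 130 mM larvae (log2 fold change 2.55 ± 0.68, adjusted p = 0.0078). Filamin C (flnca), which is recruited to damaged Z-discs, had 65, 65 and 88.7 CPM in 222 mM larvae, against 20.5, 19.2 and 22.5 CPM in 130 mM larvae (log2 fold change 1.82 ± 0.36, adjusted p = 0.00065).

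Small heat shock proteins keep unfolding proteins in solution, several of them in muscle. The gene hspb9 had 54.1, 56.4 and 63.7 CPM in 222 mM larvae, against 3.99, 5.1 and 4.41 CPM in 130 mM larvae (log2 fold change 3.69 ± 0.59, adjusted p = 7.7e-05). The gene hspb11 had 72.8, 50.4 and 67 CPM in 222 mM larvae, against 7.19, 11.1 and 17.1 CPM in 130 mM larvae (log2 fold change 2.43 ± 0.55, adjusted p = 0.0021). The gene hspb6 had 89.2, 62.1 and 52.4 CPM in 222 mM larvae, against 18.6, 9.97 and 12 CPM in 130 mM larvae (log2 fold change 2.33 ± 0.33, adjusted p = 1.4e-05). Regular medium held 6.79 ± 2.33, 9.71 ± 0.776 and 7.13 ± 2.23 CPM of hspb9, hspb11 and hspb6 (mean ± SD, n = 3), far below the 222 mM larvae. Of the 10 tested small heat shock genes, 3 rose (30%) and 2 fell (20%), beside 10.9% and 13.5% over all genes.

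Among 51 cytosolic chaperones and heat shock genes, 12 rose (23.5%) and 1 fell (1.96%), beside 10.9% and 13.5% over all genes. The number that rose was 7 without replicate 3 of 222 mM or replicate 2 of 130 mM. The chaperone gene hsp90ab1 averaged 7713 ± 257 CPM in 222 mM larvae and 5448 ± 58.9 CPM in 130 mM larvae (SD, n = 3 each), with a log2 fold change of 0.5 ± 0.09 (adjusted p = 0.00013). The heat shock factor gene hsf2 had a log2 fold change of 1.71 ± 0.4 (adjusted p = 0.0027). The inducible chaperone gene hsp70l had 10.9, 16.1 and 16.7 CPM in 222 mM larvae, against 14.8, 2.39 and 2.37 CPM in 130 mM larvae. Replicate 1 of 130 mM lay inside the range of the 222 mM libraries there, and hsp70l was not called (adjusted p = 0.42).

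Genes that build ribosomes were higher. Of 62 tested genes of ribosome biogenesis and polyamine synthesis, 43 rose and 3 fell, with a median of 0.73. The list summed to 7100, 7753 and 8098 CPM in 222 mM larvae, against 5562, 4996 and 4953 CPM in 130 mM larvae, without overlap.

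The gene heatr1 (ENSDARG00000099742, chromosome 12, 9619909 to 9700605, minus strand), needed to transcribe and process ribosomal RNA, had 134, 127 and 149 CPM in 222 mM larvae, against 43.5, 54.2 and 59.5 CPM in 130 mM larvae. Regular medium gave 73.8, 62.1 and 61.2 CPM, so all 222 mM libraries stood above the libraries of both other media. The log2 fold change was 1.38 ± 0.14 (adjusted p = 9.9e-08).

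The gene wdr75, which acts in the same nucleolar complex, had 78.5, 68.4 and 72.7 CPM in 222 mM larvae, against 37.1, 24.8 and 28.6 CPM in 130 mM larvae (log2 fold change 1.28 ± 0.14, adjusted p = 4.1e-07). The processing factor gene rrp12 had 197, 189.6 and 196 CPM in 222 mM larvae, against 88.5, 93.3 and 103 CPM in 130 mM larvae (log2 fold change 1.03 ± 0.13, adjusted p = 2.7e-06). The gene polr1a, the largest subunit of RNA polymerase I, had 89.1, 91.4 and 95.6 CPM in 222 mM larvae, against 46.5, 44.2 and 50.1 CPM in 130 mM larvae (log2 fold change 0.97 ± 0.14, adjusted p = 7.8e-06). The doses did not overlap in these genes. The assembly genes noc2l and bop1 had log2 fold changes of 1.16 ± 0.17 (adjusted p = 1.4e-05) and 0.85 ± 0.13 (adjusted p = 3.2e-05). One of the members that fell was npm1b, a nucleophosmin gene, with 5.18, 6.18 and 5.61 CPM in 222 mM larvae, against 9.86, 10.9 and 8.22 CPM in 130 mM larvae (log2 fold change -0.77 ± 0.17, adjusted p = 0.0014).

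Of 83 genes of the ribosomal proteins themselves, 3 rose (3.61%) and 1 fell (1.2%), with a median of 0.14. Both shares are below the 10.9% and 13.5% of all genes. The number that rose was 0 to 23 without any one library of 222 mM or replicate 1 or 2 of 130 mM.

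Of 45 tested circadian genes, 24 rose (53.3%) and 7 fell (15.6%), with a median of 0.66. Over all genes 10.9% rose and 13.5% fell, so the share that fell is near that of all genes. The number that fell was 4 without replicate 2 of 222 mM. In the vertebrate clock, Clock and Arntl proteins drive period, cryptochrome and nr1d genes, whose products shut the drivers off again. The hour of the day at which each group was collected is not given in the sources used here.

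The period gene per1b (ENSDARG00000012499, chromosome 7, 50822465 to 50847296, plus strand) had 226, 188 and 200.1 CPM in 222 mM larvae, against 33.6, 46.5 and 52.9 CPM in 130 mM larvae (log2 fold change 2.21 ± 0.62, adjusted p = 0.011). The gene nr1d1, a repressor of arntl genes, had 138, 94.5 and 112 CPM in 222 mM larvae, against 8.56, 19 and 19.4 CPM in 130 mM larvae (log2 fold change 2.87 ± 0.87, adjusted p = 0.018). All 222 mM libraries were above the 130 mM range in both. The call of nr1d1 was lost without replicate 1 of 130 mM (adjusted p = 0.066). Regular medium gave 37.2, 34 and 53.9 CPM of per1b and 15.2, 10.9 and 21.9 CPM of nr1d1, overlapping the 130 mM larvae.

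Output factors of the clock rose as well. The gene tefa had 474, 481 and 471 CPM in 222 mM larvae, against 175, 203 and 205 CPM in 130 mM larvae (log2 fold change 1.29 ± 0.19, adjusted p = 1.9e-05). The gene tefb had 184, 168 and 200.1 CPM in 222 mM larvae, against 63.4, 58.1 and 81.5 CPM in 130 mM larvae (log2 fold change 1.44 ± 0.19, adjusted p = 4.2e-06). The repressor gene bhlhe41 had 72.6, 77.3 and 77.2 CPM in 222 mM larvae, against 16.7, 23.4 and 26.5 CPM in 130 mM larvae (log2 fold change 1.77 ± 0.33, adjusted p = 0.00034). The light-responsive gene cry-dash lay in the same order, with 147, 148 and 156 CPM in 222 mM larvae, against 49.1, 68.6 and 54.9 CPM in 130 mM larvae (log2 fold change 1.38 ± 0.3, adjusted p = 0.0014).

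The driver genes arntl1a and arntl1b moved the other way, and genes of the Clock protein are not given here. The gene arntl1a had 26.6, 28.4 and 27.6 CPM in 222 mM larvae, against 48.6, 42.9 and 38.3 CPM in 130 mM larvae (log2 fold change -0.65 ± 0.19, adjusted p = 0.010). The gene arntl1b had 25.9, 27.2 and 27.5 CPM in 222 mM larvae, against 42.3, 41 and 40.4 CPM in 130 mM larvae (log2 fold change -0.62 ± 0.19, adjusted p = 0.019). The cryptochrome gene cry3a also fell, with 303, 291 and 280.4 CPM in 222 mM larvae, against 517, 471 and 468 CPM in 130 mM larvae (log2 fold change -0.74 ± 0.18, adjusted p = 0.0037). In these 3 genes the 222 mM libraries lay below all libraries of both other media. The call of arntl1b was lost without replicate 1 of 222 mM (adjusted p = 0.057).

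**Figure D3:**
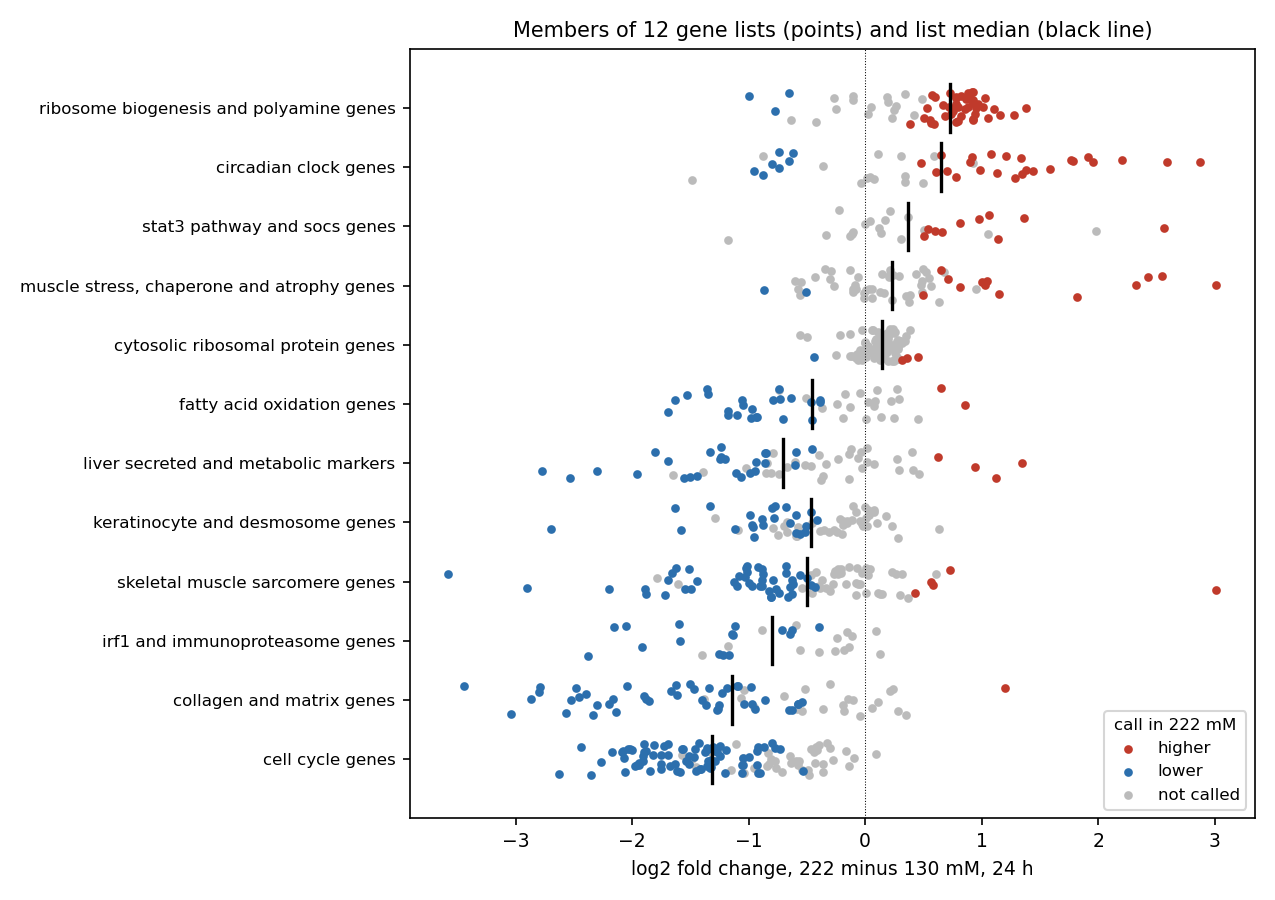
Log2 fold change (222 minus 130 mM, 24 h) of each tested member of 12 gene lists, coloured by its call, with the list median as a black line. The medians run from 0.73 for ribosome biogenesis to -1.31 for cell cycle genes, and 1 of the 116 cell cycle members lies above 0.

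Among 14 tested pro-inflammatory cytokines, il11a (ENSDARG00000037859, chromosome 16, 12611362 to 12617155, plus strand) was the one called in edgeR. This call, upwards, is 7.14% of the list, below the 10.9% called higher over all genes. In the lower direction 0 were called in edgeR, with 4 at an unadjusted p under 0.05 and 1 called by DESeq2. The number that fell was 1 without replicate 1 of 222 mM and 2 without replicate 1 of 130 mM. Interleukin 11 signals through gp130 and Stat3, and zebrafish need its receptor to regenerate fins. The gene il11a stood at 4.79, 3.27 and 4.01 CPM in 222 mM larvae, against 0.271, 0 and 0.273 CPM in 130 mM larvae. One library of 130 mM held no read, and regular medium gave 0.315, 0.561 and 1.15 CPM. The fitted log2 fold change was 4.48 ± 0.89 (adjusted p = 0.00053).

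The gp130 gene il6st had 167, 157 and 204 CPM in 222 mM larvae, against 74.3, 85.7 and 80.03 CPM in 130 mM larvae (log2 fold change 1.14 ± 0.12, adjusted p = 1.1e-07). The feedback inhibitor gene socs3b had 65, 62.3 and 83.6 CPM in 222 mM larvae, against 22.6, 25.9 and 33.3 CPM in 130 mM larvae (log2 fold change 1.37 ± 0.19, adjusted p = 9.3e-06). Regular medium gave 59.6, 52.8 and 57.2 CPM of socs3b, between the doses. Of 27 genes of the stat3 and socs list, 10 rose (median 0.37) and 0 fell, with 1 lower at an unadjusted p under 0.05 in edgeR and 0 called lower by DESeq2. The kinase gene pim1, a known stat3 target, had a log2 fold change of 0.81 ± 0.15 (adjusted p = 0.00023).

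The gelatinase gene mmp9, made by wound epidermis and neutrophils, had 77, 58.1 and 95.4 CPM in 222 mM larvae, against 13.2, 18.8 and 20.7 CPM in 130 mM larvae (log2 fold change 2.13 ± 0.43, adjusted p = 0.00073). Regular medium lay between the doses, at 26.8, 23.6 and 43.8 CPM. The gelatinase gene mmp2 went the other way, with 64.4, 62 and 53.4 CPM in 222 mM larvae, against 104, 142 and 144 CPM in 130 mM larvae (log2 fold change -1.12 ± 0.19, adjusted p = 0.00011). The 2 genes named mmp13a, collagenases that may share reads, had log2 fold changes of 1.09 ± 0.35 (adjusted p = 0.021) for ENSDARG00000012395 and 1.4 ± 0.5 (adjusted p = 0.043) for ENSDARG00000114451. The first was not called without replicate 1 or 3 of 222 mM or replicate 1 of 130 mM (adjusted p = 0.0502 to 0.10), and the second was not called without replicate 1 or 3 of 222 mM or replicate 1 or 2 of 130 mM (adjusted p = 0.076 to 0.15).

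The cytokine genes il1b and cxcl8a were not called. The cytokine gene il1b had 4.06, 5.52 and 3.33 CPM in 222 mM larvae, against 1.57, 1.28 and 2.1 CPM in 130 mM larvae, without overlap (log2 fold change 1.39 ± 0.56, adjusted p = 0.074). The neutrophil chemokine gene cxcl8a had 1.94, 1.29 and 1.23 CPM in 222 mM larvae, against 1.81, 0.724 and 0.715 CPM in 130 mM larvae (log2 fold change 0.45 ± 0.4, adjusted p = 0.45), with replicate 1 of 130 mM inside the 222 mM range. The cytokine gene tnfa was below the expression filter. The AP-1 gene junba had 50.7, 42.8 and 54.7 CPM in 222 mM larvae, against 27, 22 and 25.2 CPM in 130 mM larvae (log2 fold change 1.0 ± 0.32, adjusted p = 0.023), and its call was lost without replicate 1 or 3 of 222 mM or replicate 2 or 3 of 130 mM (adjusted p = 0.0523 to 0.087).

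Some genes of resident immune cells were lower. Of 30 macrophage and antigen presentation markers, 11 fell and 1 rose (median -0.52). The summed level of this list overlapped, at 2197, 1700 and 1758 CPM in 222 mM larvae, against 1413, 1915 and 2197 CPM in 130 mM larvae.

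The class II gene mhc2dab, whose product presents antigen, had 1.56, 1.4 and 0.744 CPM in 222 mM larvae, against 3.94, 14.2 and 12.6 CPM in 130 mM larvae (log2 fold change -3.05 ± 0.38, adjusted p = 2.2e-06). The invariant chain gene cd74a, a chaperone of class II, had 4.33, 3.71 and 2.99 CPM in 222 mM larvae, against 12.6, 19.3 and 15.5 CPM in 130 mM larvae (log2 fold change -2.11 ± 0.28, adjusted p = 4.2e-06). The doses did not overlap in either gene, and regular medium gave 33.1, 24.3 and 21.9 CPM of cd74a, above both.

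The granulin gene grn2 had 11.4, 11.9 and 9.71 CPM in 222 mM larvae, against 27.9, 30.3 and 23.7 CPM in 130 mM larvae (log2 fold change -1.31 ± 0.23, adjusted p = 0.00015). The macrophage perforin name mpeg1 covers 3 genes of the table, and 2 of them passed the expression filter. Of these 2, ENSDARG00000055290 had 15.8, 12.8 and 10.2 CPM in 222 mM larvae, against 23.6, 35.9 and 37.2 CPM in 130 mM larvae (log2 fold change -1.32 ± 0.19, adjusted p = 1.5e-05). The other, ENSDARG00000043093, had 38.6, 29.4 and 25.9 CPM in 222 mM larvae, against 23.2, 41.9 and 42.8 CPM in 130 mM larvae. It overlapped and was not called (adjusted p = 0.68). The gene spi1b, a master regulator of myeloid cells, had 5.18, 3.88 and 2.94 CPM in 222 mM larvae, against 7.31, 8.79 and 10.7 CPM in 130 mM larvae (log2 fold change -1.16 ± 0.19, adjusted p = 4.2e-05).

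Of 11 lymphocyte genes, 6 fell and 1 rose, and the number that fell was 3 without replicate 2 or 3 of 130 mM. The T cell kinase gene lck had 0.443, 0.566 and 0.388 CPM in 222 mM larvae, against 3.16, 3.42 and 3.01 CPM in 130 mM larvae (log2 fold change -2.77 ± 0.39, adjusted p = 9.5e-06). The recombinase gene rag1, active in developing lymphocytes, had 4.87, 7.95 and 5.81 CPM in 222 mM larvae, against 17, 26.6 and 19.3 CPM in 130 mM larvae (log2 fold change -1.75 ± 0.31, adjusted p = 0.00017). Regular medium gave 34.2, 34.4 and 34.2 CPM of rag1, above both doses.

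Neutrophil markers were called in both directions. Of 23 tested, 5 rose (21.7%) and 6 fell (26.1%), beside 10.9% and 13.5% over all genes. The list median was 0.17, and the members that rose include mmp9 and both mmp13a genes, given above. The number that rose was 2 to 3 without replicate 1 or 3 of 222 mM or replicate 1 or 2 of 130 mM, and the number that fell 3 without replicate 3 of 130 mM. The list summed to 3638, 2641 and 2584 CPM in 222 mM larvae, against 2240, 2187 and 2465 CPM in 130 mM larvae, higher in 222 mM larvae without overlap. Among its members, lysozyme (lyz) had 15.5, 22.3 and 19.3 CPM in 222 mM larvae, against 27.1, 62 and 43.6 CPM in 130 mM larvae (log2 fold change -1.22 ± 0.29, adjusted p = 0.0026). The cofilin-like gene cfl1l had 103, 159 and 133 CPM in 222 mM larvae, against 248, 282 and 218 CPM in 130 mM larvae (log2 fold change -0.92 ± 0.12, adjusted p = 2.8e-06). Myeloperoxidase (mpx) had 37.4, 31.7 and 33.2 CPM in 222 mM larvae, against 20.9, 61.2 and 54.8 CPM in 130 mM larvae. Replicate 1 of 130 mM was the lowest of all 6 libraries there, and mpx was not called (adjusted p = 0.39). The genes lyz, cfl1l and mpx make up a small part of the summed level, so the higher sum rests on other members. Whether the sum reflects neutrophils was not tested.

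Of 30 genes of the irf1 and immunoproteasome list, 16 fell (median -0.8) and 0 rose, with 0 higher at an unadjusted p under 0.05 in edgeR and 0 called higher by DESeq2. The inducible proteasome subunit gene psmb9a had 0.135, 0.754 and 0.194 CPM in 222 mM larvae, against 1.66, 2.75 and 1.35 CPM in 130 mM larvae (log2 fold change -2.38 ± 0.48, adjusted p = 0.00049). The class I light chain gene b2m had 8.97, 7.53 and 7.62 CPM in 222 mM larvae, against 14.5, 23.5 and 19.7 CPM in 130 mM larvae (log2 fold change -1.26 ± 0.25, adjusted p = 0.00051). The regulator gene irf1b had 20.04, 18.1 and 16.7 CPM in 222 mM larvae, against 26, 46.5 and 46.3 CPM in 130 mM larvae (log2 fold change -1.11 ± 0.27, adjusted p = 0.0035). Regular medium was highest in all 3 genes, with 7.87, 7.18 and 6.75 CPM of psmb9a, 50.2, 36.3 and 42.5 CPM of b2m and 120.2, 110.1 and 119 CPM of irf1b.

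Type I interferon genes were called in both directions, 5 higher and 5 lower of 31. Each is 16.1% of the list, beside 10.9% higher and 13.5% lower over all genes. The number that rose was 3 without replicate 2 of 222 mM, and the number that fell 3 without replicate 3 of 130 mM. The ubiquitin-like gene isg15 had 5.64, 9.37 and 2.7 CPM in 222 mM larvae, against 0.288, 0.792 and 1.98 CPM in 130 mM larvae (log2 fold change 2.56 ± 0.66, adjusted p = 0.0055). The antiviral gene mxc had 2.5, 1.98 and 1.26 CPM in 222 mM larvae, against 5.04, 12.3 and 8.32 CPM in 130 mM larvae (log2 fold change -2.16 ± 0.36, adjusted p = 6.9e-05). Mx genes are close copies, and reads may be split between them.

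Of 44 tested genes of fatty acid oxidation, 23 fell (52.3%) and 2 rose (4.55%), with a median of -0.46. The summed level overlapped, at 3025, 3147 and 3129 CPM in 222 mM larvae, against 2985, 4525 and 4443 CPM in 130 mM larvae. Replicate 1 of 130 mM lay below every 222 mM library there. Of 37 genes of fatty acid and triglyceride synthesis, 7 rose (18.9%) and 9 fell (24.3%), beside 10.9% and 13.5% over all genes.

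The desaturase gene scd, whose product makes monounsaturated fat, had 95, 83 and 111 CPM in 222 mM larvae, against 24.3, 9.13 and 12 CPM in 130 mM larvae (log2 fold change 2.67 ± 0.45, adjusted p = 0.00013). Regular medium gave 7.65, 5.92 and 11.6 CPM, overlapping the 130 mM larvae. The synthase gene fasn had 327, 379 and 439.7 CPM in 222 mM larvae, against 255, 149.6 and 138 CPM in 130 mM larvae (log2 fold change 1.08 ± 0.16, adjusted p = 1.2e-05). The carboxylase gene acaca, the committed step of synthesis, had 220.4, 216 and 229 CPM in 222 mM larvae, against 108, 102 and 102 CPM in 130 mM larvae (log2 fold change 1.09 ± 0.12, adjusted p = 2.7e-07). Their regulator gene srebf1 had 201, 136 and 157 CPM in 222 mM larvae, against 78.6, 78 and 86.7 CPM in 130 mM larvae (log2 fold change 1.02 ± 0.14, adjusted p = 4.6e-06). In fasn and scd, replicate 1 was the highest of the 130 mM libraries.

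The desaturase gene fads2, whose product acts on polyunsaturated fat, went the other way, with 183, 206 and 216 CPM in 222 mM larvae, against 294, 625 and 631 CPM in 130 mM larvae (log2 fold change -1.36 ± 0.37, adjusted p = 0.0089). The lipid droplet gene plin2 had 8.59, 7.75 and 8.8 CPM in 222 mM larvae, against 91.7, 10.5 and 10.7 CPM in 130 mM larvae (log2 fold change -2.17 ± 0.52, adjusted p = 0.0032). Its value rests on replicate 1 of 130 mM, without which the log2 fold change was -0.34 (adjusted p = 0.41).

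In oxidation, cpt1ab, the entry of fatty acids into mitochondria, had 41.6, 40.04 and 36.6 CPM in 222 mM larvae, against 56.3, 74 and 74.1 CPM in 130 mM larvae (log2 fold change -0.79 ± 0.13, adjusted p = 4.0e-05). The dehydrogenase gene hadh had 16.2, 22.6 and 18.9 CPM in 222 mM larvae, against 35.9, 50.3 and 44.6 CPM in 130 mM larvae (log2 fold change -1.18 ± 0.18, adjusted p = 2.4e-05). The reductase gene decr1 had 6.8, 6.77 and 5.1 CPM in 222 mM larvae, against 13, 20.7 and 20.4 CPM in 130 mM larvae (log2 fold change -1.53 ± 0.25, adjusted p = 4.1e-05). In these 3 genes the 222 mM libraries lay below all libraries of 130 mM and of regular medium.

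Of 35 sterol genes, 8 rose (22.9%) and 4 fell (11.4%), beside 10.9% and 13.5% over all genes. The share that fell is thus below that of all genes. The number that fell was 1 without replicate 3 of 222 mM or replicate 2 of 130 mM. The cholesterol exporter gene abca1a had 815, 762 and 927 CPM in 222 mM larvae, against 225, 415 and 443 CPM in 130 mM larvae (log2 fold change 1.21 ± 0.26, adjusted p = 0.0013). The synthesis gene cyp51 had 27.6, 29.9 and 25.1 CPM in 222 mM larvae, against 54.1, 107 and 95.3 CPM in 130 mM larvae (log2 fold change -1.63 ± 0.43, adjusted p = 0.0066).

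Of 60 liver genes, 25 fell and 4 rose (median -0.7). The number that fell was 15 to 16 without replicate 2 or 3 of 222 mM or replicate 3 of 130 mM, and the number that rose 2 without replicate 1 of 130 mM. The summed level overlapped, at 16290, 12995 and 13125 CPM in 222 mM larvae, against 15428, 21127 and 25491 CPM in 130 mM larvae.

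The lipoprotein gene apoea had 25.2, 29.8 and 27.6 CPM in 222 mM larvae, against 96.7, 246 and 221 CPM in 130 mM larvae (log2 fold change -2.77 ± 0.46, adjusted p = 0.00011). The lipoprotein gene apoc1 had 113, 112 and 144 CPM in 222 mM larvae, against 195, 479.9 and 512 CPM in 130 mM larvae (log2 fold change -1.69 ± 0.32, adjusted p = 0.00032). In both, replicate 1 of 130 mM was nearest to the 222 mM libraries. The histidine-degrading gene hal had 23.7, 24.1 and 22.5 CPM in 222 mM larvae, against 38.5, 61.8 and 65.9 CPM in 130 mM larvae (log2 fold change -1.24 ± 0.25, adjusted p = 0.00048). The gene ftcd, which acts later in the same pathway, had 13.1, 15.8 and 14.8 CPM in 222 mM larvae, against 25.2, 62.5 and 64.9 CPM in 130 mM larvae (log2 fold change -1.8 ± 0.34, adjusted p = 0.00031). The liver fatty acid carrier gene fabp10a had 311, 320.0 and 329 CPM in 222 mM larvae, against 418, 543 and 769 CPM in 130 mM larvae, without overlap, and was not called (log2 fold change -0.85 ± 0.36, adjusted p = 0.087).

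The tyrosine-degrading gene tat rose, with 430.0, 357 and 359 CPM in 222 mM larvae, against 152, 186 and 189 CPM in 130 mM larvae (log2 fold change 1.12 ± 0.26, adjusted p = 0.0021). Regular medium gave 746, 534 and 611 CPM of tat, above both doses. The gene cyp7a1, the rate-limiting enzyme of bile acid synthesis, had 32, 39.9 and 37.9 CPM in 222 mM larvae, against 8.71, 17 and 17.4 CPM in 130 mM larvae (log2 fold change 1.35 ± 0.41, adjusted p = 0.017), and its call was lost without replicate 1 of 130 mM (adjusted p = 0.079).

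Of 49 enterocyte genes, 17 fell (34.7%) and 1 rose (2.04%), with a median of -0.44. Over all genes 13.5% fell and 10.9% rose. The summed level overlapped, at 7732, 6343 and 5737 CPM in 222 mM larvae, against 7563, 9591 and 10586 CPM in 130 mM larvae. The fatty acid carrier gene fabp2 had 148, 171 and 153 CPM in 222 mM larvae, against 369, 579 and 573 CPM in 130 mM larvae (log2 fold change -1.69 ± 0.27, adjusted p = 5.4e-05). The vitamin A carrier gene rbp2a had 23, 30.8 and 28.4 CPM in 222 mM larvae, against 35.9, 83.4 and 74.1 CPM in 130 mM larvae (log2 fold change -1.23 ± 0.24, adjusted p = 0.00041). The trehalase gene treh of the brush border had 1.56, 1.08 and 1.62 CPM in 222 mM larvae, against 5.79, 5.54 and 3.85 CPM in 130 mM larvae (log2 fold change -1.83 ± 0.27, adjusted p = 1.8e-05). None of these named genes overlapped between the doses. The trypsin gene prss1 of the pancreas had 2831, 2980 and 3198 CPM in 222 mM larvae, against 3152, 2855 and 3038 CPM in 130 mM larvae. It overlapped and was not called (adjusted p = 0.98).

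Of 59 tested genes of glucose sensing, uptake and gluconeogenesis, 5 rose and 8 fell. These are 8.47% and 13.6% of the list, near the 10.9% and 13.5% of all genes. The number that rose was 2 to 8 without any one library of 222 mM or replicate 2 or 3 of 130 mM.

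Glucokinase, encoded by gck, senses glucose in the liver. It had 21, 19.2 and 40.7 CPM in 222 mM larvae, against 47.7, 148 and 83.1 CPM in 130 mM larvae, and regular medium gave 1.05, 2.13 and 1.53 CPM. All 222 mM libraries lay below the 130 mM libraries and above regular medium, but the difference between the doses was not called (log2 fold change -1.78 ± 0.83, adjusted p = 0.12).

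Some genes of glucose synthesis were among the 8 members that fell, and others of that pathway are not given here. The pyruvate carboxylase gene pcxb had 16, 13.9 and 14.2 CPM in 222 mM larvae, against 38.3, 43 and 42.4 CPM in 130 mM larvae (log2 fold change -1.49 ± 0.15, adjusted p = 1.1e-07). The bisphosphatase gene fbp1a had 45.5, 46.7 and 43.4 CPM in 222 mM larvae, against 64.7, 76.3 and 65.8 CPM in 130 mM larvae (log2 fold change -0.61 ± 0.13, adjusted p = 0.0012). The related gene fbp1b had 124, 122 and 103 CPM in 222 mM larvae, against 137, 218 and 238 CPM in 130 mM larvae (log2 fold change -0.77 ± 0.17, adjusted p = 0.0014). Both bisphosphatase genes were below the 130 mM range in all 222 mM libraries. In a separate list of sugar-breakdown enzymes, the fructose kinase gene khk had 6.35, 7.61 and 4.38 CPM in 222 mM larvae, against 17.3, 14.8 and 14.4 CPM in 130 mM larvae (log2 fold change -1.34 ± 0.23, adjusted p = 0.00010). The hexokinase gene hk2 rose, with 35.9, 43.9 and 49.6 CPM in 222 mM larvae, against 18.2, 14.5 and 12.9 CPM in 130 mM larvae (log2 fold change 1.51 ± 0.34, adjusted p = 0.0021).

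In the insulin and growth factor axis, insulin (ins) had 7.18, 9.22 and 8.85 CPM in 222 mM larvae, against 8.22, 18.5 and 19.8 CPM in 130 mM larvae, with replicate 1 of 130 mM inside the 222 mM range (log2 fold change -0.88 ± 0.26, adjusted p = 0.015). The call of ins was lost without replicate 1 of 222 mM or replicate 2 or 3 of 130 mM (adjusted p = 0.066 to 0.10). The gene igfbp1a, which binds insulin-like growth factors, had 151, 141 and 148 CPM in 222 mM larvae, against 40.6, 54.8 and 49.2 CPM in 130 mM larvae (log2 fold change 1.61 ± 0.27, adjusted p = 0.00012). Regular medium gave 264, 197 and 247 CPM of igfbp1a, above both doses.

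Growth hormone (gh1) had 18.7, 24.4 and 26.6 CPM in 222 mM larvae, against 3.91, 8.1 and 6.96 CPM in 130 mM larvae (log2 fold change 1.88 ± 0.39, adjusted p = 0.00089). The factor gene foxo1a, whose protein insulin keeps out of the nucleus, had 99.8, 86.8 and 97.8 CPM in 222 mM larvae, against 38.7, 41.6 and 47.8 CPM in 130 mM larvae (log2 fold change 1.15 ± 0.19, adjusted p = 4.7e-05). The gene irs2a, a docking protein of the insulin receptor, had 90.9, 72 and 85.3 CPM in 222 mM larvae, against 23.9, 45.6 and 52.9 CPM in 130 mM larvae (log2 fold change 1.02 ± 0.25, adjusted p = 0.0041). All 3 genes were above the 130 mM range in all 222 mM libraries.

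Of 51 genes of osmolytes, polyols and calcium, 9 rose (17.6%) and 6 fell (11.8%). Over all genes 10.9% rose and 13.5% fell, so the share that fell is below that of all genes. The number that rose was 5 without replicate 3 of 222 mM. The gene trpv6 (ENSDARG00000014496, chromosome 16, 12294284 to 12319822, minus strand) encodes the epithelial channel by which fish take up calcium from the water. It had 54.6, 57.3 and 58.3 CPM in 222 mM larvae, against 17.8, 12.7 and 15.8 CPM in 130 mM larvae (log2 fold change 1.88 ± 0.21, adjusted p = 5.0e-07). Regular medium gave 18.8, 19.7 and 19.99 CPM, far below the 222 mM larvae.

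Sorbitol dehydrogenase (sord), which turns sorbitol into fructose, had 13.1, 14.8 and 12.5 CPM in 222 mM larvae, against 27.1, 47.1 and 45.4 CPM in 130 mM larvae (log2 fold change -1.56 ± 0.27, adjusted p = 0.00010). The water and glycerol channel gene aqp3a had 91, 103 and 93.2 CPM in 222 mM larvae, against 194, 229 and 164 CPM in 130 mM larvae (log2 fold change -1.03 ± 0.15, adjusted p = 1.4e-05). Regular medium gave 316, 314 and 327 CPM of aqp3a, above both doses. Among sodium pump genes, atp1a1a (ENSDARG00000002791) rose, with 714, 711 and 739 CPM in 222 mM larvae, against 481, 463 and 464 CPM in 130 mM larvae (log2 fold change 0.62 ± 0.09, adjusted p = 1.3e-05). Other atp1a1a copies in the list are not given here, and reads may be split between them. The pump subunit gene atp1b1a had 711, 624 and 636 CPM in 222 mM larvae, against 491, 368 and 396 CPM in 130 mM larvae (log2 fold change 0.65 ± 0.1, adjusted p = 3.4e-05). The inositol oxygenase gene miox had 5.27, 4.46 and 4.76 CPM in 222 mM larvae, against 3.54, 5.69 and 3.97 CPM in 130 mM larvae, overlapped and was not called (adjusted p = 0.82). Regular medium gave 31.7, 22.1 and 31.3 CPM of miox.

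Keratins and other genes of the epidermis were among those that fell. Of 63 keratinocyte and desmosome genes, 23 fell (median -0.46) and 0 rose, with 0 higher at an unadjusted p under 0.05 in edgeR and 0 called higher by DESeq2. The list summed to 17191, 18740 and 16218 CPM in 222 mM larvae, against 25604, 37007 and 35749 CPM in 130 mM larvae, without overlap.

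Keratin 5 of the basal layer (krt5) had 2155, 3160 and 2422 CPM in 222 mM larvae, against 6425, 9541 and 8042 CPM in 130 mM larvae (log2 fold change -1.63 ± 0.23, adjusted p = 8.6e-06). Keratin 4 of the outer layer (krt4) had 3393, 3844 and 3319 CPM in 222 mM larvae, against 5117, 7783 and 7722 CPM in 130 mM larvae (log2 fold change -0.97 ± 0.17, adjusted p = 0.00013). The tight junction gene cldn1 had 22.3, 32.5 and 33.1 CPM in 222 mM larvae, against 49.9, 63.3 and 57.1 CPM in 130 mM larvae (log2 fold change -0.95 ± 0.14, adjusted p = 1.5e-05). In these genes all 222 mM libraries lay below the 130 mM range, and regular medium gave 5706, 4511 and 4781 CPM of krt4, above all 222 mM libraries. Keratin genes are close copies, so reads may be split between them.

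Of 72 genes of the blastema and wound epidermis, 13 rose (18.1%) and 14 fell (19.4%), beside 10.9% and 13.5% over all genes. The number that rose was 6 to 7 without replicate 1 or 3 of 222 mM or replicate 2 of 130 mM. The gene etv5b, a readout of fibroblast growth factor signalling, had 157, 144 and 139.8 CPM in 222 mM larvae, against 88.6, 79.3 and 80.5 CPM in 130 mM larvae (log2 fold change 0.83 ± 0.15, adjusted p = 0.00020). The growth factor gene fgf20a, which starts blastema formation, had 2.98, 3.66 and 2.91 CPM in 222 mM larvae, against 3.33, 3.44 and 2.35 CPM in 130 mM larvae. The blastema gene msx1b had 8.43, 7.07 and 5.84 CPM in 222 mM larvae, against 9.49, 5.53 and 5.55 CPM in 130 mM larvae. Both of these overlapped and were not called (adjusted p = 0.89 and 0.90).

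Of 58 genes of the responses to unfolded protein and to amino acid shortage, 12 rose (20.7%) and 4 fell (6.9%). Over all genes 10.9% rose and 13.5% fell. The number of list members that fell was 1 to 2 without replicate 3 of 222 mM or replicate 2 or 3 of 130 mM. The factor gene atf4b had 392, 321 and 347 CPM in 222 mM larvae, against 227, 158 and 176 CPM in 130 mM larvae (log2 fold change 0.92 ± 0.15, adjusted p = 3.9e-05). The gene trib3, a known target of Atf4, had 84.1, 80.1 and 90.8 CPM in 222 mM larvae, against 31, 33.1 and 32.6 CPM in 130 mM larvae (log2 fold change 1.4 ± 0.26, adjusted p = 0.00027). Neither overlapped between the doses.

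Of 59 genes of oxidative stress and glutathione, 11 rose (18.6%) and 19 fell (32.2%), beside 10.9% and 13.5% over all genes. Catalase (cat) had 94.8, 75.8 and 65 CPM in 222 mM larvae, against 140.2, 193 and 216 CPM in 130 mM larvae (log2 fold change -1.22 ± 0.18, adjusted p = 1.7e-05). The glutathione transferase gene gstt1b had 10.1, 10.6 and 11.3 CPM in 222 mM larvae, against 30.9, 36.7 and 33.6 CPM in 130 mM larvae (log2 fold change -1.66 ± 0.16, adjusted p = 3.5e-08). The gene nfe2l2b, a paralog of Nrf2, rose, with 24.3, 24.5 and 25.9 CPM in 222 mM larvae, against 11.5, 7.46 and 7.27 CPM in 130 mM larvae (log2 fold change 1.51 ± 0.3, adjusted p = 0.00051). The gene gclc, the first step of glutathione synthesis, was also above the 130 mM range in all 222 mM libraries, with 85, 98.6 and 101 CPM in 222 mM larvae, against 63.8, 60.2 and 51.5 CPM in 130 mM larvae (log2 fold change 0.7 ± 0.12, adjusted p = 9.4e-05).

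The dose difference at 24 h was then set against the same difference in uncut larvae, which shares no library with it. Each medium has 1 uncut group, whose age the labels do not give, so amputation and age cannot be told apart. The difference between the dose differences was called in 837 genes (4.16%), 232 upwards (1.15%) and 605 downwards (3.01%). Its size depended on single libraries at 24 h, with 1290 genes without replicate 1 of 130 mM, 390 without replicate 2 and 326 without replicate 3. Without replicate 2 of 222 mM it was 508, and without replicate 3 it was 466. It was 3207 without 4 libraries of the series that stood apart from their groups, among them replicate 3 of uncut 222 mM larvae and replicate 1 of 130 mM at 24 h. The balance of directions differed by setting: limma on log2(FPKM + 1), which changes the values and the scaling as well as the test, called 473 upwards and 383 downwards, while DESeq2 on the counts called 424 upwards and 851 downwards. In uncut larvae themselves 1535 genes differed between the doses (7.63%), 935 of them higher (4.65%) and 600 lower (2.98%) in 222 mM larvae.

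Blood proteins made by the liver were among the genes that shifted downwards. Of 57 complement, clotting and acute-phase genes, 38 were higher in 222 mM uncut larvae (median 1.54). At 24 h 2 were higher (3.51%) and 8 lower (14.0%), with a median of -0.31. The share that was lower is near the 13.5% of all genes. The difference was called downwards in 28, and this count was 7 to 17 without replicate 2 or 3 of 222 mM or replicate 2 or 3 of 130 mM. Clotting factor X (f10) had a log2 fold change of -0.92 ± 0.23 (adjusted p = 0.0033) at 24 h and of 1.07 in uncut larvae, a difference of -1.99 ± 0.32 (adjusted p = 0.00075). Complement gene c3a.1 had 449, 325 and 396 CPM in 222 mM larvae, against 133, 344 and 404 CPM in 130 mM larvae. At 24 h it overlapped and was not called (adjusted p = 0.51).

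Of the 60 liver markers, 20 shifted downwards, and this count was 8 to 12 without replicate 2 or 3 of 222 mM or replicate 2 or 3 of 130 mM. The log2 fold changes of ftcd, hal and apoc1 were -1.8, -1.24 and -1.69 at 24 h, and 0.9, 1.18 and 0.68 in uncut larvae. The difference was -2.71 ± 0.47 (adjusted p = 0.0024) for ftcd. It was -2.42 ± 0.35 (adjusted p = 0.00040) for hal and -2.37 ± 0.44 (adjusted p = 0.0035) for apoc1.

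Of the 91 contractile genes, 14 shifted downwards, and this count was 8 to 27 without any one library of 130 mM. The log2 fold changes of acta1a, acta1b and myl1 in uncut larvae were 0.55, 0.57 and 0.04. Between 24 h and uncut larvae, acta1a differed by -2.43 ± 0.32 (adjusted p = 0.00014) and acta1b by -4.15 ± 0.8 (adjusted p = 0.0055). The gene myl1 differed by -1.93 ± 0.35 (adjusted p = 0.0025). Stress genes of muscle were high at both times: tcap had a log2 fold change of 3.02 at 24 h and 2.95 in uncut larvae, and hspb9 had 3.69 at 24 h and 3.54 in uncut larvae. The difference was not called for tcap (adjusted p = 0.97) or hspb9 (adjusted p = 0.94).

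Of the 66 matrix genes, 9 shifted downwards (median difference -1.0), and this count was 2 to 20 without any one library of 222 mM or any one library of 130 mM. The cartilage gene mia differed by -2.3 ± 0.53 (adjusted p = 0.014). The antigen presentation gene mhc2dab had a log2 fold change of -3.05 at 24 h and -0.27 in uncut larvae, a difference of -2.78 ± 0.52 (adjusted p = 0.0034).

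For the calcium channel gene trpv6 the log2 fold change was -0.79 in uncut larvae, -0.7 at 3 h, 1.88 at 24 h and -1.15 at 48 h. Between 24 h and uncut larvae it differed by 2.67 ± 0.3 (adjusted p = 9.3e-06), and between 24 and 48 h by 3.03 ± 0.3 (adjusted p = 2.1e-07). The clock output genes tefa and tefb differed from uncut larvae by 1.19 ± 0.27 (adjusted p = 0.012) and 1.17 ± 0.27 (adjusted p = 0.012), and heatr1 by 0.96 ± 0.2 (adjusted p = 0.0060).

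**Figure D4:**
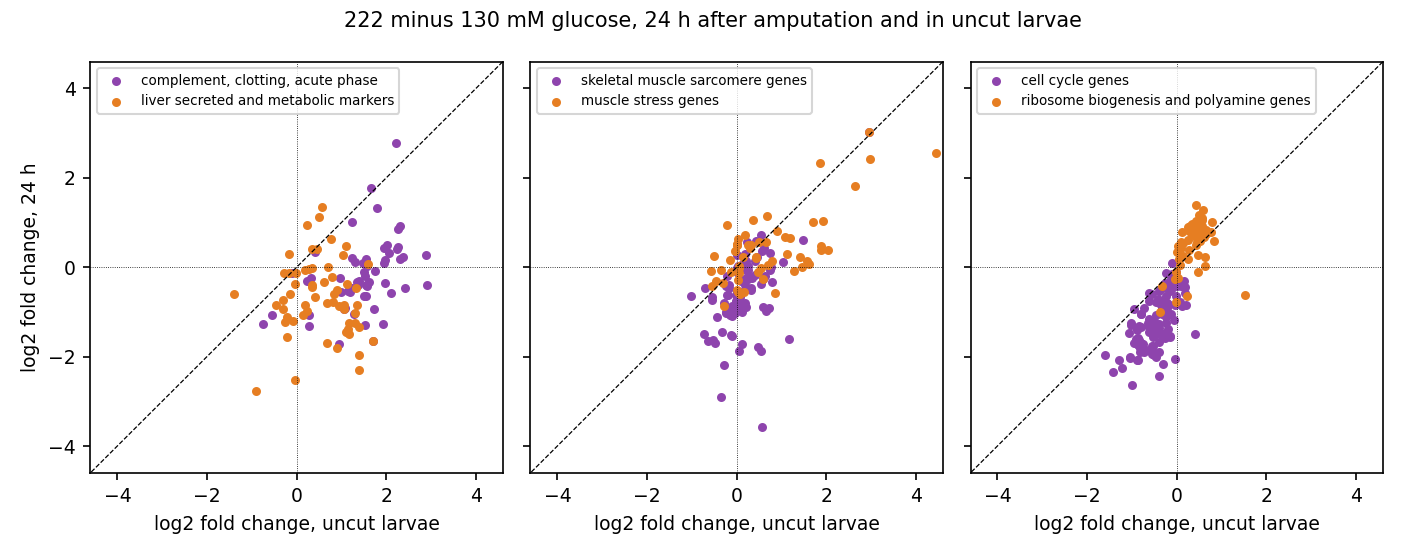
Log2 fold change (222 minus 130 mM) at 24 h (vertical axis) against that in uncut larvae (horizontal axis) for members of 6 gene lists, with the line of equal values dashed. Most complement genes lie right of 0 and below the line, contractile genes reach far below it, and the muscle stress genes with the highest values, such as tcap at 3.02 and 2.95, are high on both axes.

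The dose difference at 24 h differed from that at 3 h in 1630 genes (8.1%), 799 upwards (3.97%) and 831 downwards (4.13%), and from that at 48 h in 2097 genes (10.4%), 901 upwards (4.48%) and 1196 downwards (5.94%). Single libraries were left out at 24 h alone. Against 3 h the count was 1040 without replicate 3 of 222 mM, 1049 without replicate 2 of 130 mM and 1078 without replicate 3 of 130 mM. Against 48 h it was 1264 without replicate 3 of 222 mM. Without the same 4 libraries the counts were 4594 against 3 h and 4456 against 48 h. Limma on log2(FPKM + 1) put 1602 of 2156 genes upwards against 3 h and 438 of 2092 upwards against 48 h.

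Of the 116 cell cycle genes, 8 were lower in 222 mM larvae when uncut, 106 at 3 h, 76 at 24 h and 30 at 48 h. All genes tested were lower in 2.98%, 7.08%, 13.5% and 7.62% at these times. Of the 62 ribosome biogenesis genes, 13, 4, 43 and 5 were higher at the same times, against 4.65%, 5.75%, 10.9% and 8.13% of all genes. The difference between 24 and 3 h was called upwards in 23 of them, and that between 24 and 48 h in 20.

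The sodium pump gene atp1a2a had log2 fold changes of -0.2 at 3 h and 1.29 at 24 h, a difference of 1.49 ± 0.19 (adjusted p = 1.7e-05). Keratin 15 (krt15) had 1.19 at 3 h and -1.33 at 24 h, a difference of -2.52 ± 0.28 (adjusted p = 6.3e-06). The ammonia channel gene rhcgb had 0.85 at 24 h and -0.65 at 48 h, a difference of 1.5 ± 0.16 (adjusted p = 4.8e-07).

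**Figure D5:**
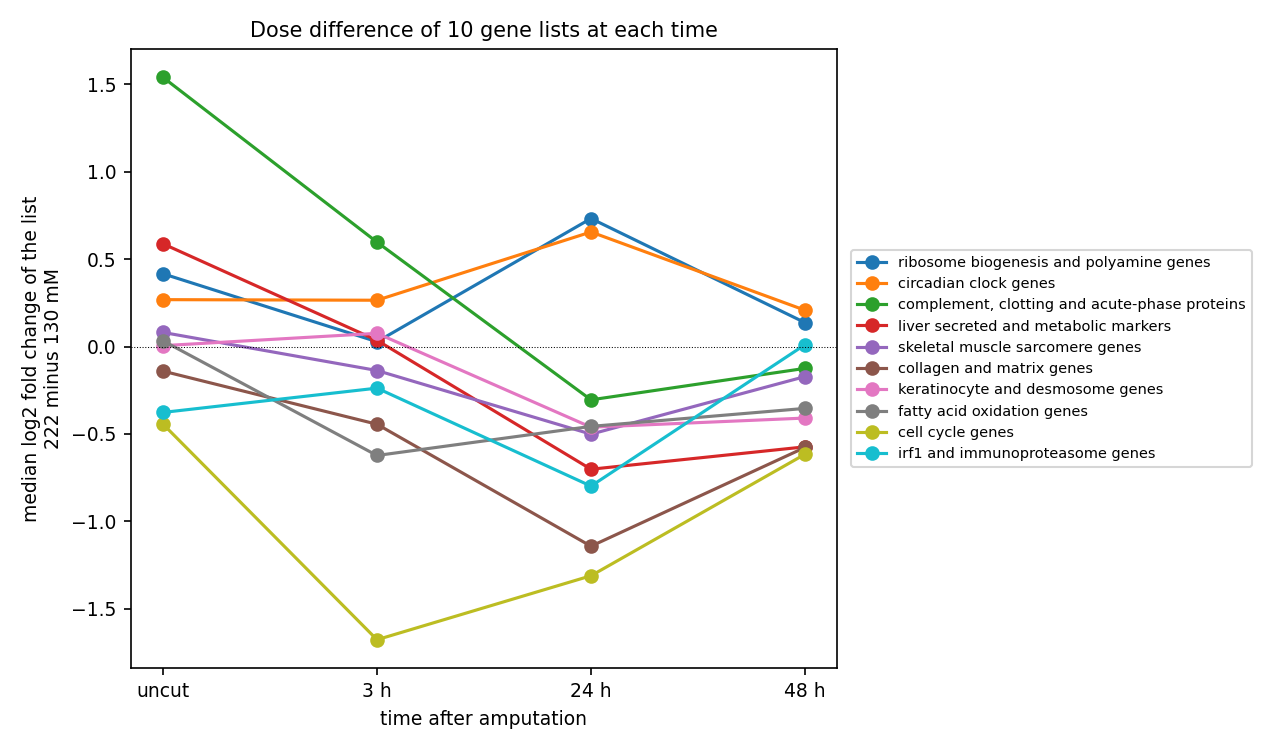
Median log2 fold change (222 minus 130 mM) of 10 gene lists in uncut larvae and at 3, 24 and 48 h after amputation. The median of complement genes is 1.54 in uncut larvae and -0.31 at 24 h, that of cell cycle genes is below 0 at all times, and those of ribosome biogenesis and clock genes are highest at 24 h.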

How the data were processed

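Total RNA of whole zebrafish larvae was sequenced as paired ends on an Illumina NovaSeq, per the labels' protocols. The authors deposited 1 table of 30221 genes with a read count and an FPKM value, a level scaled to transcript length and library size, for each of 36 libraries. HISAT, StringTie and edgeR and the build GRCz11 are named in the submitters' processing notes. How reads were counted, and whether strand was used, is not given in the sources used here, so overlapping and antisense genes may share reads.

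The 20120 genes at or above 1 FPKM in 3 or more libraries were tested on the deposited counts with edgeR 4.0.16 (R 4.3.3): TMM scaling, robust quasi-likelihood fit with 1 mean per group over all 36 libraries, and Benjamini-Hochberg adjustment over all genes tested. Contrasts were 222 minus 130 mM at 24 h, and that difference minus the same difference in uncut larvae, at 3 h and at 48 h. Each standard error is the log2 fold change over the square root of its F statistic. The script was tested on simulated counts. Every pair of libraries within a group differed by more than sampling noise. Replicate numbers are not said to mark pairs and were not used as pairs in the main fit.

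The comparison, the 44 gene lists and the named genes were chosen with earlier results of these data known, and some lists share members. Of 2356 list entries, 137 were unmatched, and the others gave 2163 members by the table's symbol and 80 through another symbol. Named genes were the 12 largest called rises and falls without overlap, a level of 5 FPKM or more in the higher group, and a proper symbol. To these were added up to 6 called members per list and direction with the smallest p, a set of fixed readouts, and the 6 smallest p of each contrast of differences. The text prints a part of them, and 1 gene is not reported here. Lists were described by counts and medians, and no list was tested.

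Alternatives were median-ratio scaling, no expression filter, limma 3.58.1 on log2(FPKM + 1) and on log2(FPKM + 0.1), DESeq2 1.42.0, the 6 libraries alone, a replicate block, the criterion of the design text, and libraries left out. Those left out singly were the 6 libraries compared at 24 h. A correction for transcript length was added after seeing the data.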

Additional observations from a re-analysis of the deposited data

Results flagged for a closer look

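For 17 values the dose difference at 24 h differed by the test from that in another group, and no explanation was weighed. Against uncut larvae, the differences in log2 fold change were negative for liver genes, at -1.99 for f10, -2.71 for ftcd, -2.42 for hal and -2.37 for apoc1. They were negative for muscle genes, at -2.43 for acta1a, -4.15 for acta1b and -1.93 for myl1. They were also negative for the cartilage gene mia at -2.3 and the class II gene mhc2dab at -2.78.

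Differences from uncut larvae were positive for the calcium channel gene trpv6 at 2.67, for the clock output genes tefa at 1.19 and tefb at 1.17, and for heatr1 at 0.96. Against 3 h, atp1a2a differed by 1.49 and krt15 by -2.52. Against 48 h, trpv6 differed by 3.03 and rhcgb by 1.5.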

How the results depend on the processing

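The count of 4898 genes at 24 h ran from 3434 to 4940 without single libraries and was 7323 without the 4 libraries that stood apart from their groups. By the criterion of the design text it was 1623. That criterion was applied as at least 2-fold with an unadjusted p under 0.05 in edgeR, so it is not a fold cut on the 4898 genes. The count against uncut larvae (837) ran from 326 to 1290 without single libraries at 24 h and was 1275 with DESeq2. That against 3 h (1630) ran from 1040 to 2062, and that against 48 h (2097) from 1264 to 2138. Libraries of uncut larvae and of 3 and 48 h were not left out singly, so these ranges do not cover them. Without the 4 libraries these 3 counts were 3207, 4594 and 4456. Under limma on log2(FPKM + 1), 55.3% of calls against uncut larvae were upward, compared with 27.7% in edgeR. Against 3 h the shares were 74.3% in limma and 49.0% in edgeR, and against 48 h 20.9% in limma and 43.0% in edgeR. The cause was not tested. Without single libraries, liver genes that fell (25) ran from 15 to 30.

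Same-numbered libraries deviated from their group means with correlations of -0.18, 0.08 and -0.15 across genes. With 3 libraries per group, such correlations cannot exclude a shared clutch or batch. With a replicate block 4779 genes were called, and all 125 printed calls remained. Of these 125 calls, 101 met the criterion of the design text, and 117 held under every other alternative run. None changed sign. The genes il1b, fabp10a, cxcl8a and gck, not called, were called under at least 1 alternative. The alternatives were listed for these 4 uncalled genes alone, and not for others printed as not called, such as hsp70l and mpx.

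Short transcripts leaned lower in 222 mM larvae: the median log2 fold change was -0.18 in the bin of shortest implied length and 0.08 in that of the longest. The share called higher was 2.88% in the shortest bin and 17.7% in the longest, and the share called lower 13.2% and 10.8%. The shares over all genes set beside the lists are not adjusted for length. With a length correction 4932 genes were called, and the 125 printed calls remained.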

Other observations

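The eye gave calls in both directions. Of 70 tested opsin and phototransduction genes, 11 (15.7%) were higher and 19 (27.1%) lower in 222 mM larvae at 24 h. Over all genes the shares were 10.9% and 13.5%. The number that rose was 6 without replicate 2 or 3 of 130 mM, and the number that fell 12 without replicate 1 of 222 mM. The red opsin gene opn1lw2 of long-wavelength cones had 49.1, 73.7 and 55.6 CPM in 222 mM larvae, against 402, 388 and 298 CPM in 130 mM larvae (log2 fold change -2.61 ± 0.31, adjusted p = 1.8e-06). The cone phosphodiesterase gene pde6c, which acts below the opsins, had 239, 294 and 257 CPM in 222 mM larvae, against 164, 132 and 105 CPM in 130 mM larvae (log2 fold change 0.98 ± 0.21, adjusted p = 0.0012). The doses did not overlap in either gene, and the genes moved in opposite directions.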
